A study of Mus musculus with 6 samples.

Results

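The 9 genes described here encode parts of the PI3K, AKT and mTOR pathway: Pik3cd, Pik3ca, Pik3r1, Inpp5d, Akt1, Akt2, Mtor, Rptor and Tsc1. They were taken by their symbols from a table of 34245 genes, and all 9 were found once. RNA-seq was available for 3 peripheral T-cell lymphomas (PTCL), numbered tumors 1, 2 and 3, from lymph nodes of terminally sick FVB mice that carry a conventional knockout of Dnmt3b on 1 allele (Dnmt3b+/-). The series also holds whole-genome bisulfite sequencing of 2 Dnmt3b+/- and 1 Dnmt3a-/- PTCL, which was not analysed here. No control library is part of the table, so the values describe tumors of 1 genotype and no test between groups was possible. The ages of the mice are not given in the sources used here, and the labels call the 3 tumors independent. Dnmt3b, the targeted gene, had 0.975, 1.55 and 1.25 FPKM in tumors 1, 2 and 3. Because FPKM covers every exon, this value does not separate the intact from the targeted allele.

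FPKM scales the reads on a gene by the length of its exons and by the depth of the library, so it allows levels to be compared between genes. Depths of 30726570, 18969988 and 20770928 reads for tumors 1, 2 and 3 were recovered from the values of genes without a read. At this depth the 9 genes rested on 617 to 10383 reads per tumor, and all 9 gave whole reads in each tumor. Intervals given below are exact Poisson 95% intervals and cover counting error only.

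The libraries are T-cell tumors by their markers. All 8 T-cell markers (Cd3d, Cd3e, Cd3g, Cd2, Cd5, Cd8a, Cd8b1 and Lck) were above 1 FPKM in each tumor and summed to 1268, 969 and 1346 FPKM in tumors 1, 2 and 3. By mean the most abundant was Cd8b1, a chain of the CD8 coreceptor, with 435, 166 and 443 FPKM, although Lck was above it in tumor 2 with 208 FPKM. The 3 CD4 T-cell markers summed to 35.9, 5.47 and 13.2 FPKM, led by Cd4 with 28.4, 4.28 and 8.22 FPKM.

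Markers of other cells differed between the libraries, and the leading gene given for each list is the one with the highest mean. The 6 macrophage markers summed to 267, 90.0 and 33.5 FPKM in tumors 1, 2 and 3, of which Lyz2, the lysozyme of myeloid cells and the leading gene, had 215, 33.1 and 20.3 FPKM. Cd68 of the same list had another order, with 19.6, 51.2 and 9.27 FPKM. The 6 B-cell markers summed to 59.6, 14.0 and 106 FPKM, led by Cd79a, a chain of the B-cell receptor complex, with 23.1, 7.31 and 49.0 FPKM. Tumor 1 thus had the highest macrophage sum, carried by Lyz2, and tumor 3 the highest B-cell sum, although the B-cell marker Cr2 was highest in tumor 1. The 8 pancreatic acinar markers summed to 87.0, 440.3 and 0.657 FPKM, led by the chymotrypsinogen gene Ctrb1, and Ctrb1 and Cpa1 had no read in tumor 3. The 5 fibroblast markers summed to 5.45, 39.4 and 0.345 FPKM, with the collagen gene Col1a1 leading by mean at 1.63, 15.5 and 0.315 FPKM, and Pdgfra had no read in tumor 3. Tumor 2 was highest for both of these lists. The 5 endothelial markers summed to 17.7, 14.0 and 5.14 FPKM, led by Pecam1, with no read of Lyve1 in tumor 3. The 5 dendritic cell markers summed to 10.6, 6.28 and 3.76 FPKM, and by mean the integrin gene Itgax led, although Clec9a was higher in tumor 2 and Xcr1 in tumor 3. The 5 neutrophil markers summed to 35.9, 1.35 and 14.8 FPKM, led by S100a9. Elane had no read in any tumor, which allows up to 0.0992, 0.161 and 0.147 FPKM, the values of 3 reads. Ly6g and Mpo each had 1 read in tumor 1 and none in tumors 2 and 3.

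Class I PI3K is a pair of a catalytic and a regulatory subunit that is recruited to activated receptors, in T cells to the antigen receptor, CD28 and cytokine receptors, and makes the membrane lipid phosphatidylinositol trisphosphate. PDK1 and AKT bind this lipid, and AKT then phosphorylates FOXO factors, GSK3 and the TSC complex, which otherwise holds back the kinase mTOR. Lipid phosphatases such as SHIP1 remove the signal, and mTOR acts in a RAPTOR complex that promotes growth and translation and in a RICTOR complex that phosphorylates AKT. RNA levels do not measure the phosphorylation on which this pathway turns.

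By mean level the 9 genes ran from Pik3cd, with 73.3 ± 17.2 FPKM (SD, n = 3), over Akt1, Inpp5d, Akt2, Pik3r1, Rptor, Pik3ca and Mtor to Tsc1, with 2.68 ± 0.309 FPKM (SD, n = 3), a 27.3-fold range. The ranges over the 3 tumors did not overlap between Pik3cd and Akt1, Akt1 and Inpp5d, Akt2 and Pik3r1, or Pik3r1 and Rptor. They overlapped between Inpp5d and Akt2, Rptor and Pik3ca, Pik3ca and Mtor, and Mtor and Tsc1, so these neighbours in the order were not separated. The gap between Akt2 and Pik3r1 was narrow, at 14.2 against 14.0 FPKM, and within counting error. With the GC trend of the libraries removed, Pik3r1 was above Akt2 in tumor 2, with 16.2 against 12.6 FPKM. All 9 genes were above 1 FPKM in each tumor, as were 28.4% of 34199 genes. For these, 1 row was kept per symbol, that with the highest mean. With a level of 5 FPKM in place of 1, the count was 5 of 9, against 14.1% of the 34199 genes. Where the highest or lowest gene of a list is named below, the mean of the 3 tumors is meant.

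**Figure D1:**
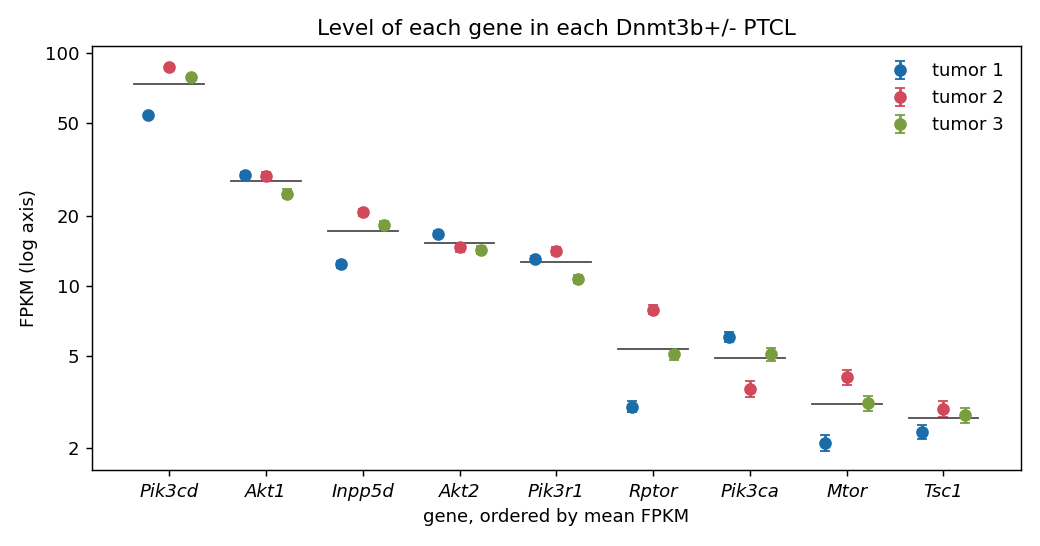
FPKM (log axis) of the 9 genes in tumors 1, 2 and 3 (points), with exact Poisson 95% intervals of the recovered reads (bars on the points) and the mean of the 3 tumors (horizontal lines). Pik3cd sits above every other gene in each tumor, and Rptor has the widest gap between its lowest tumor, 3.02 FPKM, and its highest, 7.89 FPKM.

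The catalytic subunit that dominated was Pik3cd (ENSMUSG00000039936, chr4:149649168-149702571 of mm10, minus strand), which encodes the delta isoform found mainly in leukocytes. It had 54.0 FPKM in tumor 1 (interval 53.0 to 55.0), 86.9 in tumor 2 (85.2 to 88.6) and 78.9 in tumor 3 (77.4 to 80.5). Tumor 1 was the low tumor, and the mean ranked above 96.9% of the 11191 genes with a mean of at least 1 FPKM. Pik3ca (ENSMUSG00000027665, chr3:32397671-32468486, plus strand), the broadly expressed alpha isoform, had 6.01, 3.58 and 5.07 FPKM, with tumor 2 lowest. Of the other catalytic subunits, the gamma isoform Pik3cg had 5.21 ± 0.633 FPKM (SD, n = 3) and the beta isoform Pik3cb, the lowest of the list, had 1.28 ± 0.434 FPKM (SD, n = 3). Pik3cb was the 1 of 4 catalytic subunits past 2-fold, beside 34.4% of genes with a mean of at least 1 FPKM, with 1.69, 0.828 and 1.33 FPKM in tumors 1, 2 and 3, and its ratio was 1.71 with the GC trend of the libraries removed, as described further on.

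Together the 4 catalytic subunits summed to 66.5, 96.2 and 91.3 FPKM. Pik3cd made up 81.2% of this sum in tumor 1, 90.3% in tumor 2 and 86.5% in tumor 3. Pik3ca made up 9.04%, 3.72% and 5.55%, Pik3cg 7.22%, 5.09% and 6.51%, and Pik3cb 2.54%, 0.861% and 1.46%. The delta isoform was therefore the main class I catalytic transcript in each tumor. The ratio of Pik3cd to Pik3ca was 8.98, 24.3 and 15.6, a mean of 16.3 ± 7.67 (SD, n = 3), and its highest value was 2.70 times its lowest. With the GC trend removed it was 12.2, 17.1 and 16.3, a 1.40-fold range. Macrophages and B cells also express Pik3cd, and fibroblasts express Pik3ca. The macrophage sum was highest in tumor 1, where Pik3cd was lowest, and was carried by Lyz2. All other macrophage markers except Cd68, namely Csf1r, Adgre1, Itgam and Mrc1, were also highest in tumor 1. Cd68 was highest in tumor 2, as was Pik3cd, with 19.6, 51.2 and 9.27 FPKM. The B-cell sum was 59.6, 14.0 and 106 FPKM, lowest in tumor 2. The fibroblast sum was highest in tumor 2, where Pik3ca was lowest. The part of these cells in the levels was not tested, and in bulk tumors fewer cells of a type and less RNA per cell cannot be told apart.

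Pik3r1 (ENSMUSG00000041417, chr13:101680563-101768217, minus strand) encodes the main regulatory subunit, which holds and stabilizes the catalytic one. It had 13.0, 14.0 and 10.7 FPKM in tumors 1, 2 and 3, and its highest tumor was 1.31 times its lowest. Relative to the 4 summed catalytic subunits it stood at 0.196, 0.146 and 0.117, a mean ratio of 0.153 ± 0.0400 (SD, n = 3), so catalytic transcripts outnumbered Pik3r1 transcripts on the FPKM scale in each tumor. Of the 5 regulatory subunits, 3 had a mean of at least 1 FPKM and none of these 3 reached 2-fold between tumors, beside 34.4% of all genes with such a mean. Pik3r5, which pairs with the gamma isoform, was the highest with 25.4 ± 4.68 FPKM (SD, n = 3). Pik3r6, the other partner of the gamma isoform, was the lowest with 0.445 ± 0.385 FPKM (SD, n = 3).

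Upstream of PI3K, 6 of 9 genes had a mean of at least 1 FPKM. Of these 6, 2 had a highest tumor at least 2 times the lowest, beside 34.4% of all genes with such a mean. With the GC trend removed, Gab3 and Cblb passed as well, with ratios of 2.58 and 2.02, beside 27.7% of genes. Pik3ap1, an adaptor that links PI3K to B-cell and Toll-like receptors, was the highest of the list and had 7.12, 63.9 and 20.0 FPKM, a ratio of 8.97. Icos, a costimulatory receptor that recruits PI3K in T cells, had 15.9, 2.03 and 5.21 FPKM, a ratio of 7.82 that was 4.91 with the GC trend removed. Tumors 1 and 2 were thus at opposite ends for the adaptor and the receptor. The CD4 T-cell markers, at 35.9, 5.47 and 13.2 FPKM, had the same order of tumors as Icos. Of the macrophage markers, Cd68 was highest in tumor 2, as was Pik3ap1, and the other 5 were highest in tumor 1. The part of other cells in these differences was not tested. The lowest gene was Irs1, an adaptor of the insulin receptor, with 0.0342 FPKM and 21, 4 and 0 reads, and it is uncertain because 30.9% of its exon bases overlap a gene of the opposite strand.

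Inpp5d (ENSMUSG00000026288, chr1:87620312-87720507, plus strand) encodes SHIP1, the lipid phosphatase of blood cells. It had 12.3 FPKM in tumor 1 (interval 11.9 to 12.8), 20.7 in tumor 2 (19.9 to 21.4) and 18.2 in tumor 3 (17.6 to 18.9). Like Pik3cd it was lowest in tumor 1, at a ratio of 1.68 between highest and lowest. It was the highest of the 7 phosphatases by mean, although Inpp4b was above it in tumor 1.

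All 7 phosphatases had a mean of at least 1 FPKM, and 5 of them, not Inpp5d, reached 2-fold between tumors, beside 34.4% of all genes with such a mean. Inpp4b, which removes a phosphate from the product lipid of SHIP1, had 32.5, 0.637 and 8.18 FPKM, a ratio of 51.0 that was 27.6 with the GC trend removed. Phlpp1, a phosphatase of AKT itself, had 6.48, 0.195 and 0.863 FPKM, a ratio of 33.2, with 25 reads in tumor 2. Both were highest in tumor 1 and lowest in tumor 2. Inpp4a, the lowest of the list with a mean of 1.91 FPKM, and Phlpp2 were highest in tumor 2 instead, with ratios of 2.73 and 2.11. Inpp4b and Phlpp1 had the same order of tumors as the CD4 T-cell and neutrophil sums. These sums were 35.9, 5.47 and 13.2 FPKM, and 35.9, 1.35 and 14.8 FPKM. The other marker sums had other orders, and the part of other cells was not tested. Inppl1, which encodes SHIP2, had 4.64, 9.54 and 5.07 FPKM, a ratio of 2.06 that was below 2 with the GC trend removed, and its level is uncertain because 18.8% of its exon bases overlap a gene of the opposite strand.

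Among the AKT kinases, Akt1 (ENSMUSG00000001729, chr12:112653821-112674884, minus strand) and Akt2 (ENSMUSG00000004056, chr7:27591552-27640826, plus strand) had the smallest ratios of the 9 genes with FPKM and with median-of-ratios factors, but not with rescaled FPKM or the GC trend removed. Akt1 had 29.9 FPKM in tumor 1 (interval 28.9 to 30.9), 29.4 in tumor 2 (28.3 to 30.7) and 24.8 in tumor 3 (23.8 to 25.9). Akt2 had 16.7 FPKM in tumor 1 (16.1 to 17.2), 14.6 in tumor 2 (14.0 to 15.3) and 14.2 in tumor 3 (13.6 to 14.9). Tumors 1 and 2 for Akt1, and tumors 2 and 3 for Akt2, did not differ beyond counting error. The ratio of Akt1 to Akt2 was 1.79, 2.02 and 1.74, a mean of 1.85 ± 0.147 (SD, n = 3), and ranged 1.16-fold, or 1.05-fold with the GC trend removed. Akt1 was above Akt2 in each tumor. Pdpk1, which encodes PDK1, the kinase upstream of AKT, had 7.20 ± 1.78 FPKM (SD, n = 3).

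Tsc1 (ENSMUSG00000026812, chr2:28641228-28691167, plus strand) encodes hamartin, which stabilizes the TSC complex. It had 2.34, 2.94 and 2.77 FPKM, and tumors 2 and 3 did not differ beyond counting error. Its catalytic partner Tsc2, the highest gene of the TSC list, had 5.65, 6.93 and 6.19 FPKM, and the ratio of Tsc1 to Tsc2 was 0.415, 0.425 and 0.447, a mean of 0.429 ± 0.0164 (SD, n = 3). The ratio ranged 1.08-fold over the tumors, and 1.32-fold with the GC trend removed. The level of Tsc2 is uncertain to the extent that 7.20% of its exon bases overlap Pkd1 on the opposite strand. None of the 3 genes of the TSC and RHEB list with a mean of at least 1 FPKM reached 2-fold, beside 34.4% of genes with such a mean, and Tbc1d7, the remaining subunit, was the lowest at 0.394 ± 0.121 FPKM (SD, n = 3).

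Mtor (ENSMUSG00000028991, chr4:148448611-148557683, plus strand), the kinase itself, had 2.10 FPKM in tumor 1 (interval 1.94 to 2.27), 4.03 in tumor 2 (3.75 to 4.33) and 3.11 in tumor 3 (2.88 to 3.36). Rptor (ENSMUSG00000025583, chr11:119602905-119899576, plus strand), the RAPTOR scaffold that brings substrates to mTOR, had 3.02 FPKM in tumor 1 (2.85 to 3.19), 7.89 in tumor 2 (7.54 to 8.24) and 5.07 in tumor 3 (4.81 to 5.34). In both genes tumor 1 was low, tumor 2 high and tumor 3 between them, with intervals apart in each pair of tumors. The ratio of Mtor to Rptor was 0.697, 0.511 and 0.615, a mean of 0.608 ± 0.0932 (SD, n = 3). Mtor lies on the same chromosome as Pik3cd, with 1091484 bases between them.

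The scaffold of the other mTOR complex, Rictor, was the highest of the mTOR complex list and had 10.5, 7.53 and 5.78 FPKM, with tumor 1 highest. The ratio of Rptor to Rictor was therefore 0.288, 1.05 and 0.877 in tumors 1, 2 and 3, and its highest value was 3.63 times its lowest. Of the partner ratios, this had the widest range, and with the GC trend removed, the range was 2.30-fold, with 0.404, 0.712 and 0.930. The highest tumor then became tumor 2 for Rictor and tumor 3 for the ratio. Of the 9 subunits in the list, 7 had a mean of at least 1 FPKM and 2 of these 7 reached 2-fold, Rptor and Prr5, beside 34.4% of genes with such a mean. Prr5, a subunit of the RICTOR complex, had 1.07, 4.18 and 1.05 FPKM on 63, 152 and 42 reads. Deptor, an inhibitor of mTOR, was the lowest with 0.0974 ± 0.0557 FPKM (SD, n = 3).

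**Figure D2:**
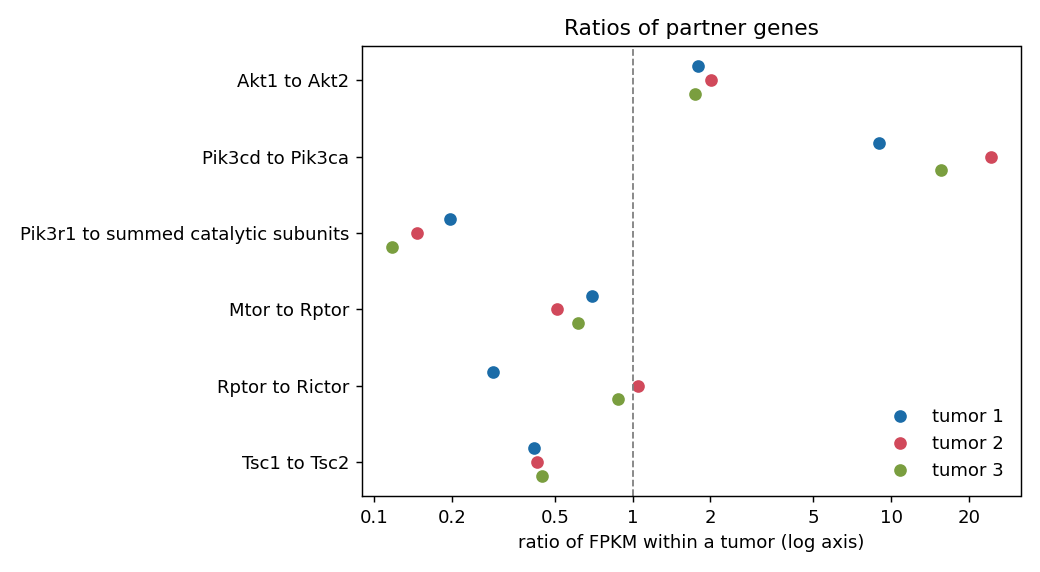
Ratio of FPKM within a tumor (log axis) for 6 pairs of partner genes, with 1 point for each tumor and a dashed line at equal levels. Tsc1 to Tsc2 and Akt1 to Akt2 lie close together, whereas Pik3cd to Pik3ca runs from 8.98 to 24.3 and Rptor to Rictor from 0.288 to 1.05, without removal of the GC trend.

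Start regions are shown for the members that spread most between tumors by FPKM and have a single entry in the RefSeq promoter table (build GRCm38.p6). With the GC trend removed, Pik3ca spread least of the 9 genes, at a ratio of 1.19. The regions give the sequence context of genes that were lowest in tumor 1 (Rptor, Mtor and Inpp5d) and of Pik3ca, lowest in tumor 2. Each is the 250 bases before the RefSeq start, read 5′ to 3′ on the gene's strand, with CpG, the target of DNA methyltransferases, in capitals.
Rptor, chr11:119602655-119602904, plus strand: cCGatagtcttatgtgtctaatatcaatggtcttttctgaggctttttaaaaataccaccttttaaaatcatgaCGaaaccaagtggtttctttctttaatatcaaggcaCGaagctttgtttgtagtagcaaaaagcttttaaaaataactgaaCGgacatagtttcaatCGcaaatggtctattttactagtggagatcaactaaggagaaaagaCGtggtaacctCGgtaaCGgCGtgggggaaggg
Mtor, chr4:148448332-148448581, plus strand: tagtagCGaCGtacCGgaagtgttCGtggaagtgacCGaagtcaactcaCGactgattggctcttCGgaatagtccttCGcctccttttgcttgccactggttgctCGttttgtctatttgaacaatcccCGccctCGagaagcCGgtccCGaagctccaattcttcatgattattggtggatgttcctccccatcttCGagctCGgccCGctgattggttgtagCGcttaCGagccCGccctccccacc
Pik3ca, chr3:32396815-32397064, plus strand: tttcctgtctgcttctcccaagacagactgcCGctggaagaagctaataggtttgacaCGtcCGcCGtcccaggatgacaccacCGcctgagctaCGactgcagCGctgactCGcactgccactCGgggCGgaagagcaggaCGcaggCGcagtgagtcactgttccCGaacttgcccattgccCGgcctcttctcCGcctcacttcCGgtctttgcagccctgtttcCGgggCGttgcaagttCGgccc
Inpp5d, chr1:87620062-87620311, plus strand: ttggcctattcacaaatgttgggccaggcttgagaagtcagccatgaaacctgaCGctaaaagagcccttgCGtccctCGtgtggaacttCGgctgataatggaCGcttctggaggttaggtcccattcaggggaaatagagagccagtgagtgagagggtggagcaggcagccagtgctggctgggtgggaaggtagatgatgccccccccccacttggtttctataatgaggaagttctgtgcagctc
These hold 9 CpG for Rptor, 19 for Mtor, 19 for Pik3ca and 5 for Inpp5d, against a median of 6 and an upper quartile of 16 over all 32851 entries of the table. The RefSeq start of Pik3ca lies 606 bases before the start of the gene in the deposited table, that of Mtor 29 bases before, and the other 2 starts are the same. Methylation at these sites was not analysed here.

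All 9 genes have an entry, 16 in total, since Pik3cd, Pik3r1, Akt1 and Akt2 have several starts. The ETS core CCGGAAG, searched on both strands, occurred in 2 of the 16, those of Mtor and Pik3ca, and in 6.91% of all entries. The E-box CACGTG occurred in none of the 16 and in 6.02% of all entries. The FOXO motif GTAAACA occurred in 1, at the outer start of Akt1, and in 3.17% of all entries. The ETS core and the E-box each contain a CpG. A match describes letters and not a bound site.

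Between tumors, 1 of the 9 genes had a highest tumor at least 2 times the lowest, Rptor with a ratio of 2.62, against 34.4% of the 11191 genes with a mean of at least 1 FPKM. All 9 genes passed that filter. At 1.5-fold the count was 5 of 9 (Pik3cd, Pik3ca, Inpp5d, Mtor and Rptor), against 62.8% of these genes. The ratio was 1.92 for Mtor, and the smallest was 1.17 for Akt2. The median ratio was 1.61 over the 9 genes and 1.68 over all genes with a mean of at least 1 FPKM. Without tumor 1, and likewise without tumor 2, no gene of the 9 reached 2-fold, so the call of Rptor rests on those 2 libraries. With libraries scaled by median-of-ratios factors, Mtor passed as well, with a ratio of 2.16. Neither for this scaling nor with a tumor left out was the share of all genes computed.

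**Figure D3:**
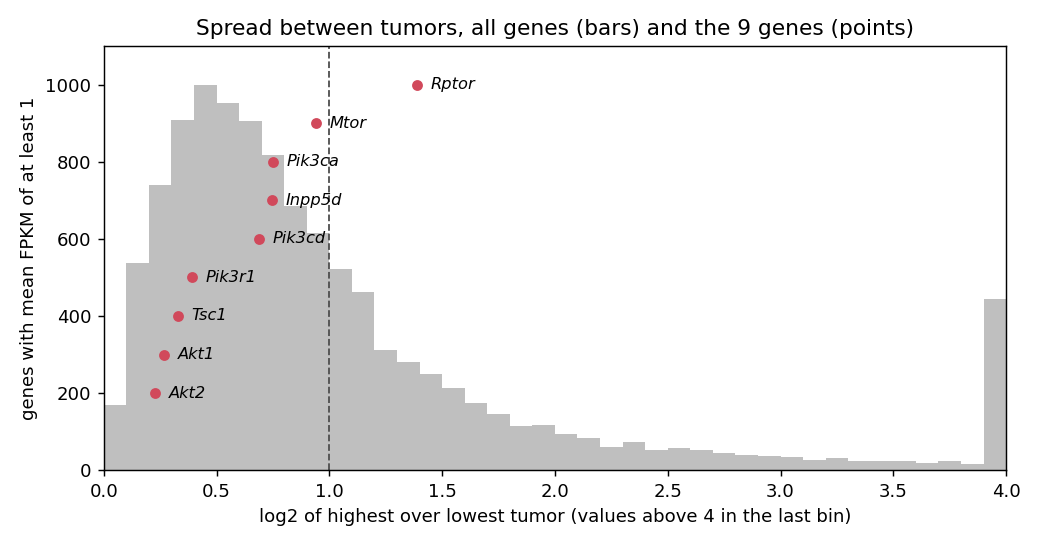
Histogram of log2 of the highest over the lowest tumor for 11191 genes with a mean of at least 1 FPKM (bars), with each of the 9 genes at its value (points, spread vertically for legibility) and a dashed line at 2-fold, where values above 4 are drawn in the last bin. Akt2, Akt1, Tsc1 and Pik3r1 lie at the low end and Rptor lies to the right of the line.

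Pair by pair, tumor 2 was at least 2 times tumor 1 for 1 of the 9 genes, Rptor, and for 10.1% of all genes with a mean of at least 1 FPKM. In the other 5 directions no gene of the 9 passed. Over the genes with such a mean, tumor 1 was at least 2 times tumor 2 for 15.1% and at least 2 times tumor 3 for 13.3%, tumor 3 was at least 2 times tumor 1 for 4.45% and at least 2 times tumor 2 for 5.11%, and tumor 2 was at least 2 times tumor 3 for 11.3%. Counting error was small against these differences: the intervals of the highest and the lowest tumor lay apart for 9 of 9 genes, and for 87% of the 9771 genes with whole reads. Of the 27 pairs of tumors over the 9 genes, 3 had overlapping intervals, and the matching share over all genes was not computed.

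Tumor 2 was the highest for 6 of the 9 genes (Pik3cd, Pik3r1, Inpp5d, Mtor, Rptor and Tsc1) against 33.7% of all genes with a mean of at least 1 FPKM. Tumor 1 was the highest for 3 (Pik3ca, Akt1 and Akt2) against 50.6%, and tumor 3 for 0 against 15.7%. Of the marker sums, the acinar (87.0, 440 and 0.657 FPKM) and fibroblast (5.45, 39.4 and 0.345 FPKM) sums were highest in tumor 2. The other marker sums were highest in tumor 1 or tumor 3, and the part of other cells was not tested. Tumor 1 was the lowest for 5 genes (Pik3cd, Inpp5d, Mtor, Rptor and Tsc1) against 24.3%, tumor 2 for 1 (Pik3ca) against 38.3%, and tumor 3 for 3 (Pik3r1, Akt1 and Akt2) against 37.4%. The median log2 ratio over all these genes was −0.18 for tumor 2 over tumor 1 and −0.24 for tumor 3 over tumor 1. Relative to that median, the log2 ratio of tumor 2 over tumor 1 was 1.56 for Rptor, 1.12 for Mtor, 0.92 for Inpp5d and 0.86 for Pik3cd. Pik3cd, Inpp5d, Mtor and Rptor were lowest in tumor 1 under FPKM, FPKM rescaled to a common sum, median-of-ratios factors and removal of the GC trend alike. Tsc1 was lowest in tumor 3 with rescaled FPKM, and the highest tumor of Akt1 and Akt2 changed with median-of-ratios factors, to tumor 2 and tumor 3. With rescaled FPKM Pik3r1 was highest in tumor 1. With the GC trend removed, Pik3r1 was lowest in tumor 1, Akt1 and Akt2 were lowest in tumor 2, and Pik3cd, Pik3ca and Inpp5d were highest in tumor 3. With median-of-ratios factors Akt2 was lowest in tumor 2.

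Rank within a library does not depend on its scaling. Among the 11191 genes, Rptor ranked above 25.2%, 62.4% and 50.2% in tumors 1, 2 and 3. Mtor ranked above 15.2%, 40.1% and 34.5%. Akt1 ranked above 90.8%, 90.6% and 89.6%. The ranks thus moved for Rptor and Mtor and stayed nearly level for Akt1.

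The libraries also differed by the base composition of genes. From the lowest to the highest decile of exon GC content, the median log2 ratio of tumor 2 over tumor 1 ran from −0.89 to 0.46, and across 11169 genes the ratio and GC content had a Pearson r of 0.315. Genes are not independent replicates, and all points share the same 2 libraries. For tumor 3 over tumor 1 the medians ran from −0.49 to −0.04. An alternative chosen after this trend was seen divides each tumor by the median deviation of the genes of the same GC decile from their own means. Pik3ca, with 41.6% G and C, had a log2 ratio of −0.75 between tumors 2 and 1, near the median of −0.69 of its decile, and −0.08 after the division. Akt1, with 60.6%, had −0.02 against a median of 0.46, and −0.48 after the division. The log2 ratios of these 2 genes changed more than those of Rptor and Mtor. Rptor, with 53.3%, had 1.39 against a median of 0.14, and 1.23 after the division. Mtor, with 52.7%, had 0.94 against 0.08, and 0.87 after it.

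After this division, 1 of the 9 genes again reached 2-fold, Rptor at 2.34, against 27.7% of the 11169 genes with a mean of at least 1 FPKM and a GC content. The highest tumor was then tumor 2 for 4 of the 9 genes (34.3% of those 11169), tumor 1 for 2 (35.3%) and tumor 3 for 3 (30.3%). The part of base composition in the differences between tumors was not tested beyond this.

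**Figure D4:**
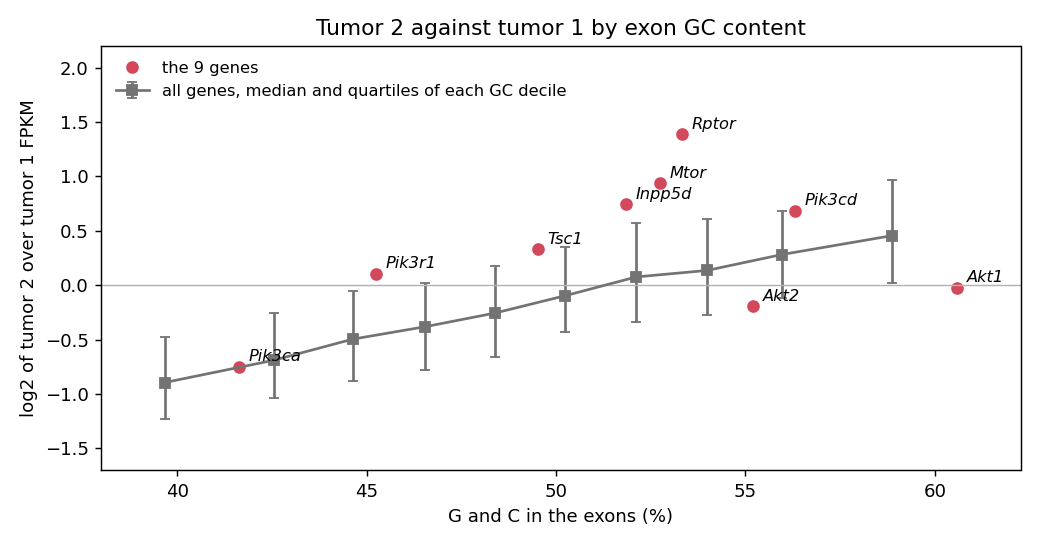
Log2 of tumor 2 over tumor 1 FPKM against the G and C content of the exons in percent, for deciles of 11169 genes (squares, median with quartiles) and the 9 genes (points). The medians climb with GC content from −0.89 to 0.46, Pik3ca lies on that line and Rptor lies above it.

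Of the other 67 genes of the pathway lists, 54 were above 1 FPKM in each tumor, as were 28.4% of all genes. Of the 67, 58 had a mean of at least 1 FPKM, beside 11191 of all 34199 genes. Of these 58, 19 had a highest tumor at least 2 times the lowest, with a median ratio of 1.60, beside 34.4% and 1.68 over all 11191 genes with such a mean. In this respect the 58 genes were close to the background. Tumor 1 was the highest for 21 of the 58, tumor 2 for 24 and tumor 3 for 13, beside 50.6%, 33.7% and 15.7% of the 11191 genes.

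Among 20 genes of amino acid sensing upstream of mTORC1, 19 had a mean of at least 1 FPKM and 4 of these reached 2-fold, beside 34.4% of genes with such a mean. The highest was Lamtor2, a subunit of the Ragulator complex that anchors mTORC1 to the lysosome, with 14.8, 52.9 and 53.0 FPKM, a ratio of 3.58. Lamtor4, of the same complex, had 11.4, 30.7 and 28.6 FPKM, a ratio of 2.68, and both were lowest in tumor 1. Of the other subunits of the complex, Lamtor1 was also lowest in tumor 1, Lamtor5 was lowest in tumor 2, and Lamtor3 was lowest in tumor 2, or in tumor 1 with the GC trend removed. The level of Lamtor1 is uncertain to the extent that 18.7% of its exon bases overlap Lrrc51 on the opposite strand. Sesn1, a leucine-regulated inhibitor of the pathway, had 6.51, 10.3 and 4.32 FPKM, and the RAG GTPase gene Rragb had 3.10, 5.25 and 6.38 FPKM. The lowest was Rragd with 0.243 ± 0.131 FPKM (SD, n = 3).

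Of the 9 substrates and effectors of mTORC1, all had a mean of at least 1 FPKM and 4 reached 2-fold, beside the same 34.4%. The ribosomal protein gene Rps6 was the highest, with 614, 864 and 1424 FPKM, a ratio of 2.32. Near-identical pseudogenes may share its reads, which was not tested, so its level is uncertain. Of the 67 other pathway genes, Rps6 was the 1 with a mean above that of Pik3cd. Eif4ebp1, a repressor of translation and the lowest of the list, had 0.652, 1.92 and 1.43 FPKM on 44, 80 and 65 reads. Its target Eif4e had 10.5, 4.44 and 7.40 FPKM, a ratio of 2.37 that was 1.49 relative to genes of its GC decile. Rps6kb2 had 6.97, 11.9 and 5.53 FPKM, a ratio of 2.14 that was 1.70 with the GC trend removed, but 23.7% of its exon bases overlap Ptprcap on the opposite strand, which was far higher with 172, 354 and 176 FPKM, so its level is uncertain.

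The 6 AKT substrates were all above 1 FPKM in each tumor, as were 28.4% of all genes, and 2 of 6 reached 2-fold, close to the 34.4% of genes with a mean of at least 1 FPKM. Foxo1, the transcription factor that AKT keeps out of the nucleus, had 15.1, 3.70 and 12.1 FPKM, a ratio of 4.08, with 7.78% of its exon bases shared with a gene of the opposite strand. Bad had 3.78, 8.43 and 5.25 FPKM, a ratio of 2.23 that was 1.63 with the GC trend removed, with 20.5% of its exon bases shared with a gene of the opposite strand. Gsk3a was the highest with 23.6 ± 1.15 FPKM (SD, n = 3), of which 28.3% of exon bases are shared in the same way, and Gsk3b was the lowest with 5.45 ± 0.898 FPKM (SD, n = 3).

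Of 4 known FOXO1 target genes of T cells, all 4 had a highest tumor at least 2 times the lowest, beside 34.4% of the genes with a mean of at least 1 FPKM, with a median ratio of 7.24. A list this short describes its genes only. Tumor 2 was the lowest for each of them, as for Foxo1 and for 38.3% of all genes with a mean of at least 1 FPKM. Il7r, the receptor of interleukin 7, had 30.7, 0.641 and 64.5 FPKM. S1pr1, the receptor by which T cells leave lymph nodes, had 62.2, 5.83 and 42.1 FPKM, and Klf2, the factor that induces it, had 48.6, 12.7 and 41.7 FPKM. The homing receptor Ccr7 had 71.2, 33.2 and 53.8 FPKM. Ccr7 was the highest by mean and Il7r the lowest. The CD4 T-cell and B-cell sums were also lowest in tumor 2, as was the T-cell sum through Cd8a and Cd8b1. Cd2 was highest in tumor 1 and did not differ between tumors 2 and 3 beyond counting error, at 101 and 104 FPKM. Cd3d was lowest in tumor 1, with 110, 135 and 183 FPKM. Cd3e, Cd3g and Cd5 were highest in tumor 2, and Lck did not differ between tumors 2 and 3 beyond counting error, at 208 and 207 FPKM. The acinar and fibroblast sums were highest in tumor 2. The part of other cells in these differences was not tested.

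**Figure D5:**
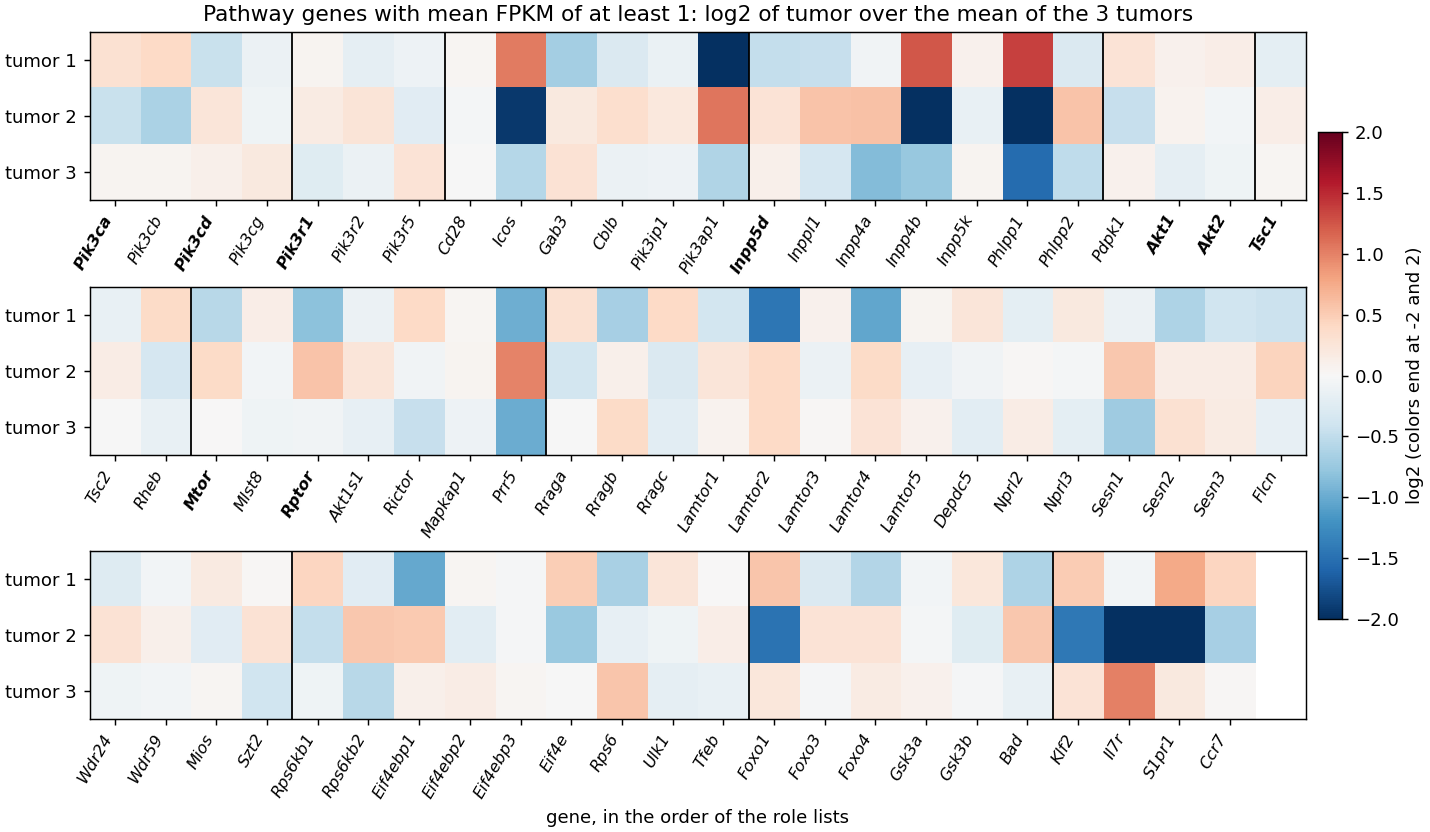
Log2 of each tumor's FPKM over the mean of the 3 tumors for the pathway genes with a mean of at least 1 FPKM, in the order of the role lists (black lines separate lists, bold names are genes of the 9, colors end at −2 and 2). Rptor has the widest range of the 9 genes, and Icos, Pik3ap1, Inpp4b, Phlpp1, Foxo1, Il7r and S1pr1 have dark cells.

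Genes with the most similar levels over the 3 tumors were found by the root mean square difference of log2 FPKM among genes with a mean of at least 1 FPKM. For Pik3cd they were Nono, at a difference of 0.07 with 53.8, 80.2 and 81.7 FPKM, and Kbtbd11, at 0.08 with 55.2, 84.1 and 86.3 FPKM. For Akt1 they were Arf4 and Eif3g, at 0.04 and 0.05, and for Mtor they were Fam120c and Ptar1, at 0.07 and 0.09. Within a difference of 0.25 there were 27 genes for Pik3cd, 120 for Akt1 and 62 for Mtor. With 3 tumors, similar levels are shared by many genes.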

How the data were processed

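After trimming, the authors used STAR for alignment against mm10, kept reads of high mapping quality and counted them per gene with the SeqMonk RNA-seq pipeline. The deposited values are FPKM without a log. Versions of these tools and the use of strand in counting are not given in the sources used here.

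The depth follows from genes with no read, whose deposited value equals 0.9 read. Reads per gene were recovered with merged exon lengths of GENCODE M21, to within 0.01 read or the rounding of large values, for 92.1% to 92.3% of genes with a length. In the table, 26 symbols turned into dates were restored. GC content came from the GRCm38.p6 genome, and promoters from RefSeq GRCm38.p6.

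With 1 group of 3 tumors, all values are descriptive and no test was run. A filter of a mean FPKM of at least 1 and a threshold of 2-fold between the highest and lowest tumor were used, with no pseudocount. Named genes are the 9 members, in each role list the highest, the lowest and up to 4 genes past 2-fold, the partners of each ratio, the highest gene of each marker list, and the 2 nearest genes of Pik3cd, Akt1 and Mtor. Genes outside this rule, such as Dnmt3b, Cd3e, Cd3g, Cd5, Lck, Cd68, Lamtor1, Lamtor3, Lamtor5, Inppl1, Pik3cg, Ptprcap and markers without a read, were added with values in view. The members and lists were chosen with earlier results of these data known, and a few listed genes are not reported here and were taken out of the counts. Alternatives were other thresholds, scalings, filters, a pseudocount, each tumor left out, repeated symbols summed and, added after seeing the data, GC decile medians. The steps were tested on simulated data. Software was matplotlib 3.10.9, SciPy 1.17.1, NumPy 2.4.6 and pandas 2.3.3 under Python 3.11.15.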

Additional observations from a re-analysis of the deposited data

How the results depend on the processing

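Of the 9 genes, 5 were above 5 FPKM in each tumor. The threshold of 0.2 FPKM and FPKM rescaled to sum to 1000000 could not lower the count of 9. Of the 9 genes, 5 reached 1.5-fold between tumors, beside 62.8% of genes with a mean of at least 1 FPKM, and 0 reached 3-fold. The count at 2-fold, 1, was 2 with median-of-ratios factors and 0 to 1 with a tumor left out. For 3-fold, median-of-ratios factors and a tumor left out, shares of all genes were not computed. A higher fold or fewer tumors can only lower or keep a count, so these counts set the 9 genes apart from no others. The median ratio of the 9 genes, 1.61, was 1.19 to 1.61 with a tumor left out, when fewer tumors are compared, and 1.47 to 1.53 under the other scalings, the GC decile medians and a pseudocount of 1 FPKM. With median-of-ratios factors 1 gene was highest in tumor 1 and 1 in tumor 3, and with GC decile medians 3 were highest in tumor 3. Of the other pathway genes, 19 passed 2-fold, 9 to 13 with a tumor left out and 17 to 22 under the other scalings and GC decile medians. A filter of a mean of at least 0.2 FPKM gave 23 and no filter gave 25. Both filters test more genes, and shares of all genes were not computed for them. Means of the 9 genes moved by less than 1 SD except under the rescaling, which moved all 9 because it changes the unit. Partner ratios moved by over 1 SD in 1 case, Tsc1 to Tsc2 with a pseudocount of 1 FPKM, and no mean over tumors crossed 1, although Rptor to Rictor in tumor 2 went from 1.05 to 0.712 with GC decile medians. Beyond the construction of an alternative, the cause was not tested. No paired analysis was possible because there is 1 group. Prr5, Eif4ebp1 and Phlpp1 in tumor 2 rest on few reads, and 3 tumors without controls limit every statement to these libraries.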
